A study of Mus musculus with 29 samples.

Results

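G1 cyclins, their kinases and the inhibitors of those kinases set whether a cell passes from G1 into S phase. The 10 genes described here were chosen by name: the D-type cyclins Ccnd1, Ccnd2 and Ccnd3, the kinases Cdk4 and Cdk6, the CIP/KIP inhibitors Cdkn1a, Cdkn1b and Cdkn1c, and the INK4 inhibitors Cdkn2c and Cdkn2d. They are 10 of 48709 gene identifiers in the RNA tables, and each of them was among the 20078 genes that passed the low-count filter. They were measured in mouse embryonic cortex at E16.5, in Tbr2-positive and Tbr2-negative material, after the histone deacetylase inhibitor TSA (trichostatin A) or after vehicle. Tbr2, encoded by Eomes, is the transcription factor that marks basal (intermediate) progenitors, which divide away from the ventricle and give rise to cortical neurons. The RNA groups were Tbr2-positive TSA (2 libraries), Tbr2-positive vehicle (3), Tbr2-negative TSA (2) and Tbr2-negative vehicle (3). The chromatin groups, from immunoprecipitation of histone H3 acetylated at lysine 9 (H3K9ac, a mark of active promoters), were Tbr2-positive TSA (4), Tbr2-positive vehicle (3), Tbr2-negative TSA (4) and Tbr2-negative vehicle (4). Strain, TSA dose, route and duration were not given in the sources used here.

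In early G1 a D-type cyclin binds Cdk4 or Cdk6, and the complex phosphorylates the retinoblastoma protein and its relatives. This frees E2F factors to turn on the cyclin E, cyclin A and DNA replication genes. INK4 proteins bind the free kinases Cdk4 and Cdk6. CIP/KIP proteins bind cyclin and kinase complexes, block Cdk2 and also help cyclin D complexes to assemble. In the embryonic cortex, lengthening of G1 accompanies the change from proliferative to neurogenic division, and the CIP/KIP proteins are known for their part in cell-cycle exit.

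The RNA libraries held 18567111 to 26282652 counts each. Eomes, the gene that defines the sort, averaged 443 ± 93.3 CPM (counts scaled to a common library total) in Tbr2-positive and 18 ± 4.04 CPM in Tbr2-negative vehicle libraries (SD, n = 3 each), and 427 ± 50.3 CPM in Tbr2-positive and 11.2 ± 4.19 CPM in Tbr2-negative TSA libraries (SD, n = 2 each). The series' design describes sorted nuclei, whereas its RNA protocol names whole tissue, and the sources used here do not resolve this. The Tbr2-positive libraries had more RNA of the 12 basal progenitor markers listed, which include Eomes itself (12 of 12 higher in vehicle), and less of the interneuron markers (9 of 9 lower). Of the other cell types, 4 of 12 radial glia markers were higher and none lower in Tbr2-positive vehicle libraries, with a summed level of 1170 to 1510 CPM in Tbr2-positive and 875 to 949 CPM in Tbr2-negative vehicle libraries, while 4 of 5 oligodendrocyte precursor markers and 2 of 7 microglial markers were lower. In these bulk samples, fewer cells of a type and less RNA per cell cannot be told apart. Nothing says that the replicates came from separate animals, so the p-values measure only the spread between these samples. The library kit does not mark strand, and Ccnd3, Cdk4 and Cdk6 overlap other annotated genes, as do Ccnd1 and Ccnd2. Reads from both genes of such a pair cannot be told apart.

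Promoter windows of the members on which the results turn are shown here so that the H3K9ac peaks and the RNA can be read against them. The RefSeq promoter table (GRCm38.p6; 250 bases before to 50 after each start) holds 7 of the 10 members with 10 starts: Ccnd3, Cdk4, Cdk6, Cdkn1a, Cdkn1b, Cdkn2c and Cdkn2d. Printed are 4 members with more RNA in Tbr2-positive vehicle libraries, and both starts of Cdkn1a, at which peaks were found at one start only. Capitals mark 3 kinds of motif on either strand: the GC box GGGCGG, the E-box CACGTG and the paired core CATGNNNNNNCATG, the spacing of the p53 consensus. Their locations, in the order printed, are chr5:3343643-3343942 (plus strand), chr10:127063285-127063584 (plus strand), chr6:134920151-134920450 (plus strand), chr4:109666707-109667006 (minus strand), chr17:29090729-29091028 (plus strand) and chr17:29093519-29093818 (plus strand).
Cdk6: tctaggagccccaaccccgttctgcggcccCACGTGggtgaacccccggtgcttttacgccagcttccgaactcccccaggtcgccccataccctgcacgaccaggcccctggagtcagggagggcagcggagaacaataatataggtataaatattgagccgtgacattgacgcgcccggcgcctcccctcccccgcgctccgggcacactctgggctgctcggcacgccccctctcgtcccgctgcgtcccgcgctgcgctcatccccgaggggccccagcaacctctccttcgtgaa
Cdk4: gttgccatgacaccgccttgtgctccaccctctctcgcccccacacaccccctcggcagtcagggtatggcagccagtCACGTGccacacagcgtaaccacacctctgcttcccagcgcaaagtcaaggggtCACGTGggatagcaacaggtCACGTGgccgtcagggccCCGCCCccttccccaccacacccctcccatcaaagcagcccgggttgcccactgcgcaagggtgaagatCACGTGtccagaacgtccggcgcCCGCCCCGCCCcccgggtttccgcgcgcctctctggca
Cdkn1b: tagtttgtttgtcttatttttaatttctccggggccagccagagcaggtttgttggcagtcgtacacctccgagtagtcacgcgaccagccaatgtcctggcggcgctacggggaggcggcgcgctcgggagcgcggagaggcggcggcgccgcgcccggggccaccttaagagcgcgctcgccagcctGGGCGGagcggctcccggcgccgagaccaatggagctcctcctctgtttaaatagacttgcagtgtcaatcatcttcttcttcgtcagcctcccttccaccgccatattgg
Cdkn2c, upstream start: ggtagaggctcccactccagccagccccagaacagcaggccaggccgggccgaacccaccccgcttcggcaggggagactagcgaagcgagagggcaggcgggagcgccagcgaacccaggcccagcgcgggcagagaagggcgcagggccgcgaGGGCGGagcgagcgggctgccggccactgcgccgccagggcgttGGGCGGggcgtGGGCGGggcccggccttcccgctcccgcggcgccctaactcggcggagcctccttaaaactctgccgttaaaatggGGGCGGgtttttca
Cdkn1a, upstream start: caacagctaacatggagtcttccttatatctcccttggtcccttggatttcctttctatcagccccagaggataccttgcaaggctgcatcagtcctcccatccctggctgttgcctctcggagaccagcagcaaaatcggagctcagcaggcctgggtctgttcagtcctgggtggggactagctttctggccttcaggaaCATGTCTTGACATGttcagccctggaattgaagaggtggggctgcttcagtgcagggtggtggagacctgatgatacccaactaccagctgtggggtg
Cdkn1a, downstream start: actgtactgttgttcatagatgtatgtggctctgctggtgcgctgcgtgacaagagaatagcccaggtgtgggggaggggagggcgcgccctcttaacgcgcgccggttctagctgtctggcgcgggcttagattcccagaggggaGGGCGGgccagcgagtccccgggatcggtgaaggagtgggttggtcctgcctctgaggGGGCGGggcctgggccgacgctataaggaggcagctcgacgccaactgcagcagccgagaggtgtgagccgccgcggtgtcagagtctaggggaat

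Cdk4 held 4 E-boxes and 3 GC boxes, of which 2 share bases, whereas an E-box was found in 7.84% of 21263 promoter windows of protein-coding genes and a GC box in 46.2%. Cdk6 held 1 E-box and no GC box. The upstream window of Cdkn2c held 4 GC boxes, Cdkn1b held 1, and the downstream window of Cdkn1a held 2. The downstream window of Cdkn2c, which is not printed, held 1 E-box and no GC box. The upstream window of Cdkn1a held the paired CATG core, which 0.701% of all windows hold. An E2F core (TTGGCGC or TTCGCGC, 5.0% of windows) was in none of the 10 member windows. A match describes letters in a window and not binding.

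The first question was how the G1 genes differ between Tbr2-positive and Tbr2-negative samples without inhibitor. In vehicle libraries, 6 of the 10 genes were higher in Tbr2-positive samples and none was lower: Cdk6, Cdkn2c, Ccnd2, Cdk4, Ccnd1 and Cdkn1b. Over all genes tested, 21.4% passed the same threshold (edgeR's quasi-likelihood test, Benjamini-Hochberg adjusted p below 0.05), 9.96% as higher. The median log2 fold change of the 10 genes was 0.81, against -0.05 over all genes tested. Both kinases, 2 of 3 D cyclins and 1 inhibitor of each family were among the genes that rose. The CPM ranges of 6 members did not overlap between populations, as for 39.7% of all genes, and the same 6 had an unadjusted p below 0.05, as did 33.1% of all genes.

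**Figure D1:**
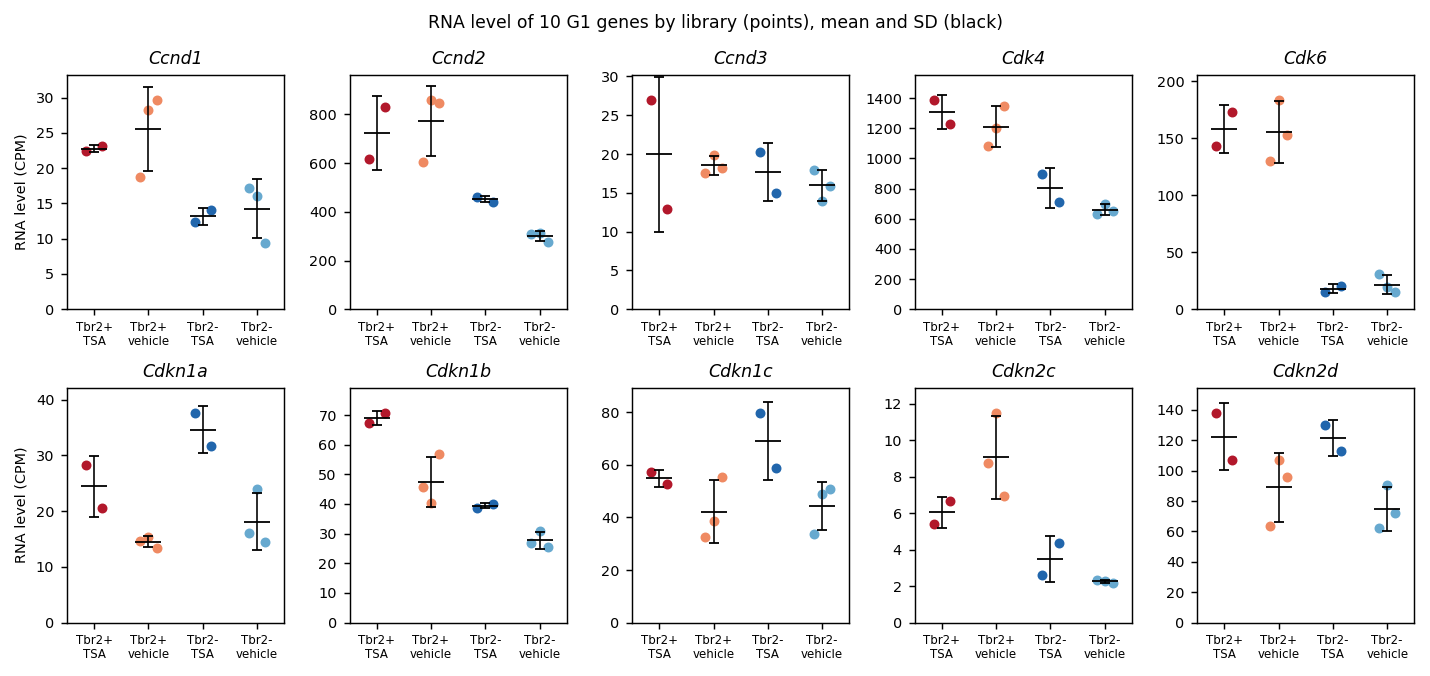
RNA level in CPM of each gene, 1 point per library, with the group mean and SD in black; groups run from Tbr2-positive TSA to Tbr2-negative vehicle. The Tbr2-positive points of Cdk6 lie between 130 and 184 CPM and its Tbr2-negative points between 14.8 and 30.6 CPM.

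Among the D-type cyclins, Ccnd2, a D cyclin known from cortical progenitors, had 605, 860 and 847 CPM in Tbr2-positive vehicle libraries, against 310, 314 and 275 CPM in Tbr2-negative vehicle libraries. Every Tbr2-positive library lay above every Tbr2-negative one. The log2 fold change was 1.36 ± 0.17 (SE; 2.57-fold; edgeR adjusted p = 0.000123). Ccnd1, the other D cyclin that rose, had 18.7, 28.3 and 29.7 CPM in Tbr2-positive vehicle libraries and 17.2, 16 and 9.45 CPM in Tbr2-negative vehicle libraries. The lowest Tbr2-positive library came close to the highest Tbr2-negative one, and the log2 fold change was 0.84 ± 0.26 (edgeR adjusted p = 0.0368). The call for Ccnd1 was lost without any one of 4 vehicle libraries, Tbr2-positive replicate 2 or 3 or Tbr2-negative replicate 2 or 3, with adjusted p up to 0.123. Ccnd3, known for its role in lymphocyte development, had 17.5, 19.9 and 18.2 CPM in Tbr2-positive and 18, 14 and 15.9 CPM in Tbr2-negative vehicle libraries. These ranges overlapped (log2 fold change 0.21, 95% interval -0.37 to 0.8; edgeR adjusted p = 0.643).

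Both cyclin D kinases rose. Cdk6 showed the greatest fold change of the 10 genes, with 130, 184 and 153 CPM in Tbr2-positive vehicle libraries, against 30.6, 19.5 and 14.8 CPM in Tbr2-negative vehicle libraries. The log2 fold change was 2.84 ± 0.25 (7.18-fold; edgeR adjusted p = 1.34e-05). Cdk4 had 1080, 1200 and 1350 CPM in Tbr2-positive and 634, 700 and 649 CPM in Tbr2-negative vehicle libraries. Its log2 fold change was 0.87 ± 0.15 (1.83-fold; edgeR adjusted p = 0.000997). Tspan31, a tetraspanin gene that overlaps Cdk4, differed in the same direction, with 156 CPM on average in Tbr2-positive and 83.4 CPM in Tbr2-negative vehicle libraries (log2 fold change 0.9 ± 0.16; edgeR adjusted p = 0.00149).

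Of the CIP/KIP genes, Cdkn1b, which encodes p27, had 45.6, 40.2 and 56.7 CPM in Tbr2-positive vehicle libraries, against 26.7, 30.9 and 25.5 CPM in Tbr2-negative vehicle libraries. Its log2 fold change was 0.78 ± 0.17 (1.72-fold; edgeR adjusted p = 0.00504), and the ranges did not overlap. The relatives of Cdkn1b did not pass the test. Cdkn1c, which encodes p57, had 32.4, 38.7 and 55.6 CPM in Tbr2-positive and 33.8, 48.8 and 50.7 CPM in Tbr2-negative vehicle libraries (log2 fold change -0.07, 95% interval -0.56 to 0.41; edgeR adjusted p = 0.868). Cdkn1a, which encodes p21 and is the classical target of p53, had 14.7, 15.4 and 13.4 CPM in Tbr2-positive and 16, 23.9 and 14.4 CPM in Tbr2-negative vehicle libraries (log2 fold change -0.32, 95% interval -0.82 to 0.19; edgeR adjusted p = 0.382). The groups of Cdkn1a and of Cdkn1c overlapped.

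Of the INK4 genes, Cdkn2c, which encodes p18, had 8.76, 11.5 and 6.95 CPM in Tbr2-positive vehicle libraries, against 2.32, 2.29 and 2.18 CPM in Tbr2-negative vehicle libraries. This was a log2 fold change of 2.0 ± 0.37 (4-fold; edgeR adjusted p = 0.00175). Cdkn2d, which encodes p19INK4d, had 63.7, 107 and 96.1 CPM in Tbr2-positive and 62, 90.8 and 71.9 CPM in Tbr2-negative vehicle libraries, and these ranges overlapped (log2 fold change 0.25, 95% interval -0.19 to 0.69; edgeR adjusted p = 0.444). The INK4 genes Cdkn2a and Cdkn2b did not pass the low-count filter: their summed level was at most 0.463 CPM in any library.

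**Figure D2:**
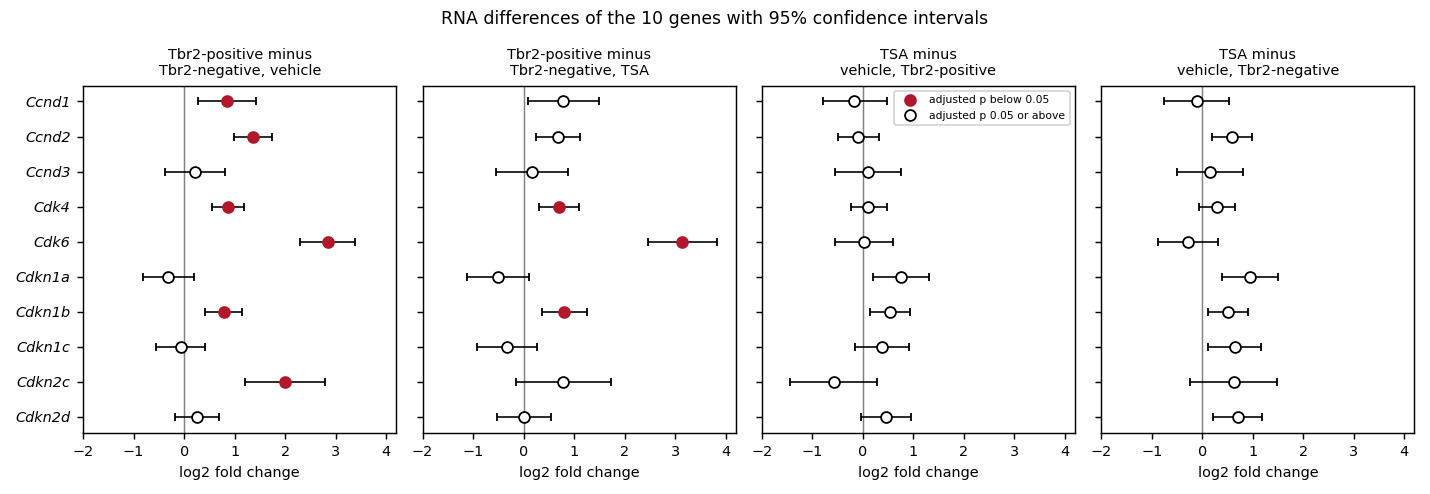
Log2 fold change of each gene in 4 comparisons, with 95% confidence intervals from edgeR; filled points have an adjusted p below 0.05. In vehicle 6 genes are filled and in TSA 3, and no gene is filled in either comparison of TSA with vehicle.

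The rest of the pathway was compared through lists of genes. All 5 late G1 and S genes listed rose in Tbr2-positive vehicle libraries, among them Cdk2, the partner of cyclins E and A (log2 fold change 1.85 ± 0.25; edgeR adjusted p = 0.000237). Ccna2, encoding cyclin A2, and Ccne2, encoding a cyclin E, had log2 fold changes of 1.52 ± 0.22 and 1.34 ± 0.2. Of the 15 replication genes known as E2F targets, 13 rose and none fell, with the ribonucleotide reductase gene Rrm1 at 1.59 ± 0.18, the MCM helicase gene Mcm2 at 1.64 ± 0.23 and the MCM gene Mcm6 at 1.63 ± 0.23 on the log2 scale. Of 10 E2F and DP factors, 5 rose and none fell, among them the activators E2f1 (1.31 ± 0.3) and E2f3 (1.03 ± 0.23) and the dimer partner Tfdp2 (0.72 ± 0.15). Of 3 pocket protein genes only Rbl1, encoding p107, rose (1.22 ± 0.23 on the log2 scale; edgeR adjusted p = 0.00213), and the other 2 did not pass the test.

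Among 9 upstream factors, 4 rose and 1 fell. Trp53, encoding p53, rose by 0.94 ± 0.15 on the log2 scale (edgeR adjusted p = 0.000602), and Mdm2, the ligase that degrades p53, by 0.69 ± 0.14 (edgeR adjusted p = 0.00383). Myc, a transcription factor that binds E-boxes, had a log2 fold change of -1.18 ± 0.26 (edgeR adjusted p = 0.00597). The median log2 fold changes of the lists were 1.52 for late G1 and S genes, 1.28 for replication genes, 0.6 for E2F and DP factors, 0.2 for pocket proteins and 0.02 for upstream factors. Markers of G2 and M phase moved with these genes: 9 of 10 rose, and their summed level was 550 to 845 CPM in Tbr2-positive and 212 to 266 CPM in Tbr2-negative vehicle libraries. Pan-neuronal markers went the other way, with 6 of 9 lower, 1 of 9 higher and a summed level of 4640 to 5620 CPM in Tbr2-positive and 8160 to 10200 CPM in Tbr2-negative vehicle libraries. The part of these cell populations in the differences of the G1 genes was not tested.

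**Figure D3:**
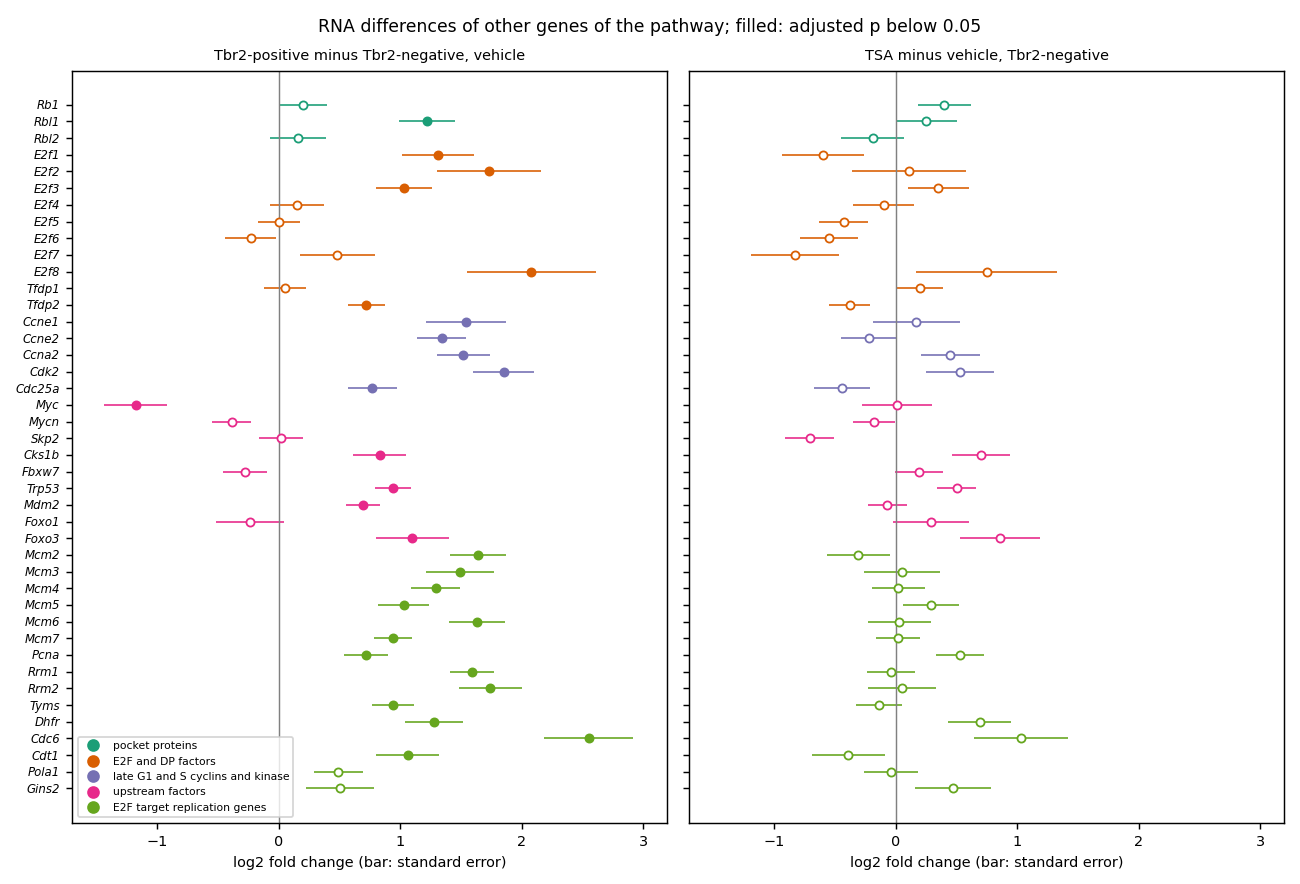
Log2 fold change with its standard error for the other genes of the pathway, coloured by list; filled points have an adjusted p below 0.05. The left panel, Tbr2-positive minus Tbr2-negative in vehicle, holds all 5 late G1 and S genes and 13 of 15 replication genes as filled points to the right of 0; the right panel, TSA minus vehicle in Tbr2-negative libraries, holds no filled point.

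The same populations were then compared under TSA. Here 3 of the 10 genes were higher in Tbr2-positive libraries, Cdk6, Cdk4 and Cdkn1b, and none was lower, against 9.32% of all genes in either direction, 4.19% as higher and 5.13% as lower. An unadjusted p below 0.05 was found for 5 members and for 23.0% of all genes. Cdk6 had 143 and 173 CPM in Tbr2-positive and 15.1 and 20.6 CPM in Tbr2-negative TSA libraries (log2 fold change 3.14 ± 0.32; 8.84-fold; edgeR adjusted p = 0.000169). Cdk4 had 1390 and 1230 CPM in Tbr2-positive and 899 and 713 CPM in Tbr2-negative TSA libraries (log2 fold change 0.7 ± 0.18; edgeR adjusted p = 0.0281). Cdkn1b had 67.4 and 70.7 CPM in Tbr2-positive and 38.8 and 40 CPM in Tbr2-negative TSA libraries (log2 fold change 0.81 ± 0.2; edgeR adjusted p = 0.0267). The groups did not overlap for any of these 3 genes. The call for Cdkn1b was lost without any one of the 4 TSA libraries (adjusted p up to 0.14). The call for Cdk4 was lost without Tbr2-positive TSA replicate 1 or 2, without Tbr2-negative TSA replicate 2 (adjusted p up to 0.173) and with only the 2 groups compared (adjusted p = 0.0548). Cdk6 was called under each of these settings.

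Ccnd1, Ccnd2 and Cdkn2c did not pass under TSA. Ccnd2 had 616 and 829 CPM in Tbr2-positive and 460 and 442 CPM in Tbr2-negative TSA libraries (log2 fold change 0.68 ± 0.21; edgeR adjusted p = 0.0573). Cdkn2c had 5.43 and 6.65 CPM in Tbr2-positive and 2.59 and 4.39 CPM in Tbr2-negative TSA libraries (log2 fold change 0.79, 95% interval -0.15 to 1.73; edgeR adjusted p = 0.308). Ccnd1 had 22.4 and 23.1 CPM in Tbr2-positive and 12.3 and 14 CPM in Tbr2-negative TSA libraries (log2 fold change 0.79 ± 0.32; edgeR adjusted p = 0.158). For these 3 genes the ranges still did not overlap, as for 8 of the 10 members and 50.9% of all genes. Of the pathway lists, all 5 late G1 and S genes, 12 of 15 replication genes and 4 of 10 E2F and DP factors rose in Tbr2-positive TSA libraries. Of the other lists, 0 of 3 pocket proteins and 1 of 9 upstream factors, Trp53, rose and none fell.

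The effect of TSA within each population was the second question. In Tbr2-positive libraries none of the 10 genes passed, and neither did any other gene: 0% of 20078 had an edgeR adjusted p below 0.05, while 3175 (15.8%) had an unadjusted p below 0.05. There, DESeq2 called 1065 genes and edgeR without the low-count filter 364, none of them among the 10. With unadjusted p below 0.05 were 2 members, both CIP/KIP inhibitors. Cdkn1a had 28.3 and 20.6 CPM in Tbr2-positive TSA libraries, against 14.7, 15.4 and 13.4 CPM in Tbr2-positive vehicle libraries (log2 fold change 0.75 ± 0.26; edgeR adjusted p = 0.183). Cdkn1b had 67.4 and 70.7 CPM with TSA, against 45.6, 40.2 and 56.7 CPM with vehicle (log2 fold change 0.54 ± 0.18; edgeR adjusted p = 0.184). Neither gene's groups overlapped, which held for 3 members and for 33.5% of all genes.

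In Tbr2-negative libraries, again none of the 10 genes passed, against 1.18% of all genes in either direction and 0.817% as higher, and 5 had an unadjusted p below 0.05, against 20.1% of all genes. These were Ccnd2 and 4 inhibitors, each with higher values under TSA. Cdkn1a had 37.6 and 31.6 CPM in Tbr2-negative TSA libraries and 16, 23.9 and 14.4 CPM in Tbr2-negative vehicle libraries (log2 fold change 0.94 ± 0.26; 1.91-fold; edgeR adjusted p = 0.0717). Cdkn2d had 130 and 113 CPM with TSA and 62, 90.8 and 71.9 CPM with vehicle (log2 fold change 0.7 ± 0.23; edgeR adjusted p = 0.11). Ccnd2 had 460 and 442 CPM with TSA and 310, 314 and 275 CPM with vehicle (log2 fold change 0.59 ± 0.19; edgeR adjusted p = 0.102). In each case both TSA libraries lay above all 3 vehicle libraries. The ranges of 7 members were apart, as for 40.7% of all genes. The other inhibitors of this kind were Cdkn1c, at 79.8 and 58.7 CPM with TSA and 33.8, 48.8 and 50.7 CPM with vehicle, and Cdkn1b, at 38.8 and 40 CPM with TSA and 26.7, 30.9 and 25.5 CPM with vehicle. DESeq2 called 3 members as higher with TSA, Cdkn1a (adjusted p = 0.0115), Ccnd2 (adjusted p = 0.0267) and Cdkn2d (adjusted p = 0.0442), and it called 2029 genes in all where edgeR called 236, or 0 with a non-robust fit and 944 without the low-count filter, which also called Cdkn1a. Without Tbr2-negative vehicle replicate 2, edgeR also called Cdkn1a (log2 fold change 1.18; adjusted p = 0.0373).

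The kinases did not pass the test of TSA against vehicle. Cdk6 had log2 fold changes of 0.02 (95% interval -0.55 to 0.59) in Tbr2-positive and -0.28 (-0.87 to 0.31) in Tbr2-negative libraries. Cdk4 had 0.11 (-0.24 to 0.47) in Tbr2-positive and 0.29 (-0.06 to 0.64) in Tbr2-negative libraries. Ccnd1 was at -0.17 (-0.8 to 0.47) in Tbr2-positive and -0.11 (-0.75 to 0.53) in Tbr2-negative libraries. Ccnd3 had 27 and 12.9 CPM in Tbr2-positive TSA libraries, a spread wider than all 8 other libraries, which ran from 14 to 20.3 CPM. The pathway lists held no gene called between TSA and vehicle in either population. Other RNA classes differed with TSA in their summed level. The summed level of 84 ribosomal protein genes was 14100 to 16100 CPM in Tbr2-positive TSA and 6900 to 10200 CPM in Tbr2-positive vehicle libraries, and 14600 to 18700 CPM in Tbr2-negative TSA and 7980 to 11600 CPM in Tbr2-negative vehicle libraries. Of 78 such genes tested, 20 rose in Tbr2-negative and 0 in Tbr2-positive libraries. Nuclear long noncoding RNAs, of which none of 9 passed, summed to 5640 to 7940 CPM in Tbr2-negative TSA and 8490 to 13500 CPM in Tbr2-negative vehicle libraries. Mitochondrially encoded genes, of which 1 of 15 tested rose in Tbr2-negative and 0 in Tbr2-positive libraries, summed to 3210 to 3320 CPM in Tbr2-positive TSA and 943 to 3100 CPM in Tbr2-positive vehicle libraries, and to 3340 to 4880 CPM in Tbr2-negative TSA and 1040 to 2790 CPM in Tbr2-negative vehicle libraries. Summed levels of some cell type markers differed too, while those of basal progenitor, G2 and M phase and microglial markers overlapped in both populations. For single genes, ranges were apart for 33.5% in Tbr2-positive and 40.7% in Tbr2-negative libraries. Pan-neuronal markers, of which none of 9 passed, summed to 6080 to 6730 CPM in Tbr2-positive TSA and 4640 to 5620 CPM in Tbr2-positive vehicle libraries, and to 10700 to 11900 CPM in Tbr2-negative TSA and 8160 to 10200 CPM in Tbr2-negative vehicle libraries. Radial glia markers, of which 1 of 12 rose in Tbr2-negative libraries, summed there to 1090 to 1150 CPM with TSA and 875 to 949 CPM with vehicle. Oligodendrocyte precursor markers, of which none of 5 passed, summed to 18.3 to 20.2 CPM in Tbr2-positive TSA and 6.82 to 12.9 CPM in Tbr2-positive vehicle libraries, and to 65.6 to 66.3 CPM in Tbr2-negative TSA and 38.8 to 55.7 CPM in Tbr2-negative vehicle libraries. Interneuron markers, of which 2 of 9 rose, summed to 1270 to 1360 CPM in Tbr2-negative TSA and 695 to 800 CPM in Tbr2-negative vehicle libraries. The part of these shifts in the values of the G1 genes was not tested.

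Whether TSA acted differently in the populations was tested by the interaction, and no gene passed (0% of 20078; 1103 genes, or 5.49%, had an unadjusted p below 0.05; DESeq2 called 12). Of the 10 genes only Ccnd2 had an unadjusted p below 0.05: its TSA effect in Tbr2-positive libraries minus that in Tbr2-negative libraries was -0.68 ± 0.26 on the log2 scale (edgeR adjusted p = 0.895). The corresponding difference for Cdkn2c was -1.21 ± 0.56 (95% interval -2.42 to 0.01; edgeR adjusted p = 0.895). The log2 fold change of Cdkn2c with TSA was -0.58 in Tbr2-positive and 0.62 in Tbr2-negative libraries, neither past the threshold.

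The order of group means took 2 forms among the 10 genes. How many of all genes have either order was not counted. For Ccnd1, Ccnd2, Cdk4, Cdk6, Cdkn1b and Cdkn2c both Tbr2-positive groups had higher means than both Tbr2-negative groups, and the neighbouring groups in the middle of the order did not overlap. For Cdkn1a, Cdkn1c and Cdkn2d both TSA groups had higher means than both vehicle groups. In the middle of that order the ranges of Cdkn1a overlapped, whereas those of Cdkn1c did not and those of Cdkn2d did not. The middle pair sets a TSA group of one population against a vehicle group of the other. Within Tbr2-positive libraries, the TSA and vehicle ranges of Cdkn1a were apart, whereas those of Cdkn1c and of Cdkn2d overlapped. Within Tbr2-negative libraries they were apart for each of these genes. The means of Ccnd3 also had both Tbr2-positive groups above both Tbr2-negative groups, but they spanned only 1.25-fold and each neighbouring pair overlapped. By Pearson correlation of log2 CPM over the 10 libraries, the genes closest to Cdk6 were Wasf2 (0.986), Unc5d (0.985) and Sema5a (0.985), and those closest to Cdkn1a were Ccdc32 (0.984), Atp5g3 (0.978) and Atp6v1a (0.975), among 11944 candidates. Those closest to Ccnd2 were Tcf4 (0.98), Ilf2 (0.974) and Mapk1ip1l (0.974). These libraries fall into 2 populations and 2 treatments, so a high value describes a shared group pattern.

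H3K9ac was read from the authors' peak lists, called separately in each library. All libraries of a group were called against the same input sample, and each group had its own. The inputs differed in depth, with the fewest tags in that of Tbr2-positive TSA. The lists held 31823 to 40053 peaks in Tbr2-positive TSA libraries, 61487 to 82164 in Tbr2-positive vehicle, 47835 to 78929 in Tbr2-negative TSA and 56403 to 78773 in Tbr2-negative vehicle libraries. The tags behind each list numbered 22225481 to 30267202 in Tbr2-positive TSA, 27601349 to 29490943 in Tbr2-positive vehicle, 15173175 to 23073573 in Tbr2-negative TSA and 25801692 to 28481476 in Tbr2-negative vehicle libraries. Peaks lay within 1 kb of a gene end in every library for 8 of the 10 genes in Tbr2-positive TSA, 9 in Tbr2-positive vehicle, 9 in Tbr2-negative TSA and 9 in Tbr2-negative vehicle. The shares over 21887 protein-coding genes were 54.8%, 59.9%, 59.7% and 60.7% for the same groups. The exceptions were Cdkn1a, with no peak in these windows in any of 15 libraries, and Cdkn1c, with a peak in 3 of 4 Tbr2-positive TSA libraries. The strongest peaks belonged to Cdk4 and Cdkn1b: over the 15 libraries a median of 98.0% and 97.9% of each library's peaks had a lower −log10 q than theirs. For Ccnd3 the median was 60.1% and for Cdkn1c 64.8%. These scores are the authors' own and rank peaks within a list only.

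The peaks of Cdkn1a lay inside the gene. Its outermost annotated start had none within 1 kb in any library, and the downstream start, 2790 bases further in, had a peak within 1 kb in 15 of 15 libraries. In 11 of them the peak reached into the promoter window printed above with 2 GC boxes; the upstream window with the paired CATG core was in no peak. Cdk6 had a run of peaks that reached from near its outermost start to beyond the start listed in the promoter table, 2889 bases further in. The printed window of Cdk4, with its E-boxes, lay mostly outside peaks. Peaks reached it in 13 of 15 libraries and covered at most 72 of its 300 bases. The printed windows of Cdk6, Cdkn1b and Cdkn2c were reached in 15 of 15 libraries. Windows around annotated starts, chosen after these positions were seen, held a peak in every library of all 4 groups at 9 of the 10 starts in the table, the exception being the upstream start of Cdkn1a, against 56.8% (Tbr2-positive TSA), 61.1% (Tbr2-positive vehicle), 60.9% (Tbr2-negative TSA) and 61.8% (Tbr2-negative vehicle) of all 21263 starts.

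**Figure D4:**
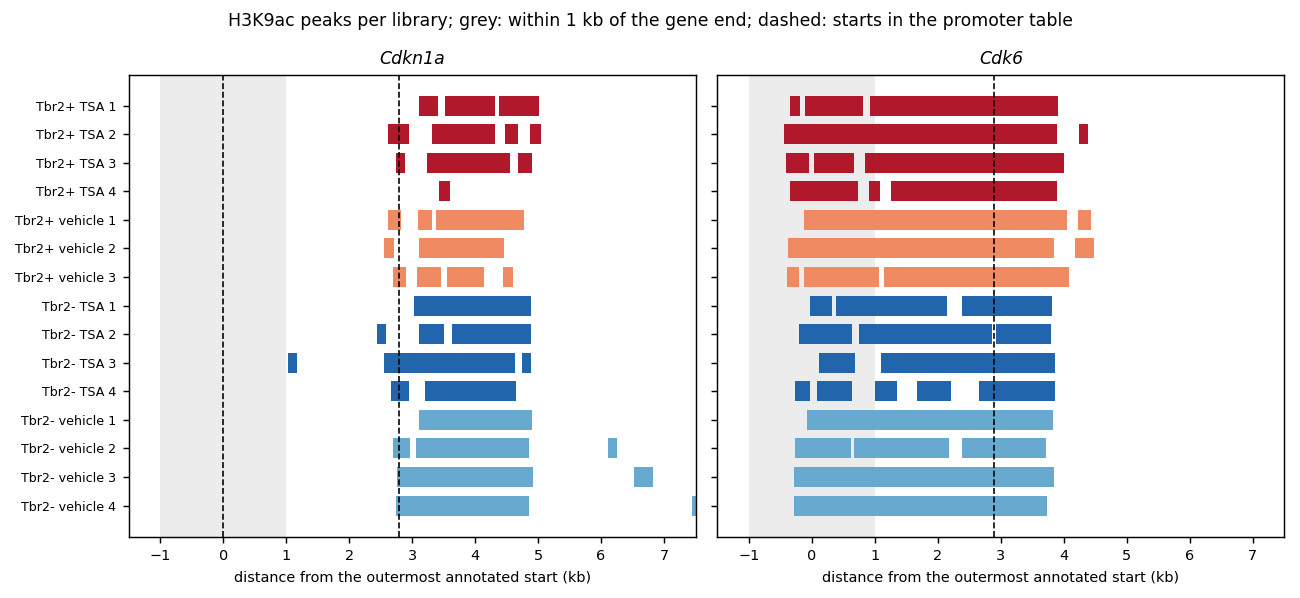
H3K9ac peaks in each library (bars) by distance in kb from the outermost annotated start of Cdkn1a and Cdk6; grey marks 1 kb around that start and dashed lines the starts in the promoter table. No bar of Cdkn1a reaches the grey band, and peaks of all 15 libraries lie around its second start, 2790 bases in.

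Between populations, peak extent was compared as the bases of the gene-end windows under peaks. Because each group had its own input, a group difference in coverage cannot be separated from a difference between inputs. The permutation tests treat libraries as exchangeable between groups and do not account for this. The same limit holds for every H3K9ac comparison below, and the part of the inputs was not tested. Another annotated gene lies in the windows of Ccnd1, Ccnd2, Ccnd3, Cdk4 and Cdk6, and Kri1 lies in those of Cdkn2d. Peaks there cannot be assigned to the member alone. In vehicle the groups did not overlap for 3 genes, against 20.1% of 15845 genes with a peak. Cdkn1b had 3070, 3340 and 3053 covered bases in Tbr2-positive vehicle libraries, against 2069, 2002, 2038 and 2293 in Tbr2-negative vehicle libraries. It was the only member with longer coverage (difference 1050 bases; exact two-sided permutation p = 0.0286, the smallest 35 splits can give; adjusted p = 0.213), and 3.94% of these genes were longer without overlap. Within 1 kb of its annotated start alone, Cdkn1b averaged 1810 covered bases in Tbr2-positive and 1810 in Tbr2-negative vehicle libraries, so the longer coverage lay at the other gene end. Cdk4 had 973, 959 and 1015 covered bases in Tbr2-positive and 1323, 1345, 1170 and 1184 in Tbr2-negative vehicle libraries. Cdkn1c had 250, 636 and 667 covered bases in Tbr2-positive and 1239, 1221, 988 and 842 in Tbr2-negative vehicle libraries. Coverage was thus longer over Cdkn1b and shorter over Cdk4, and both had more RNA in Tbr2-positive samples. The windows of Cdk4 held 2 peaks in each Tbr2-negative and 1 in each Tbr2-positive vehicle library. Within its list, the strongest Cdk4 peak had 99.0% to 99.7% of peaks below it in Tbr2-positive vehicle libraries. In Tbr2-negative vehicle libraries this share was at most 98.0%. For Cdkn1b the shares were 98.4% to 99.6% and at most 97.9%. Shorter coverage of Cdk4 thus did not go with a lower rank, and ranks were not tested. In coverage, none of the 15845 genes reached an adjusted p below 0.05, and 2125 had an unadjusted exact p below 0.05. A gene at the smallest p of 35 splits passes the adjustment only if very many other genes share that p. The lack of a pass thus says nothing on the size of a difference. With the strongest 31823 peaks of every library none of the 3 genes remained apart, and Ccnd1 and Cdkn2d were shorter without overlap (2 members, against 21.4% of genes in either direction and 17.5% as shorter). Without Tbr2-positive vehicle replicate 2 the count of members apart was 5, with the share over all genes not counted.

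**Figure D5:**
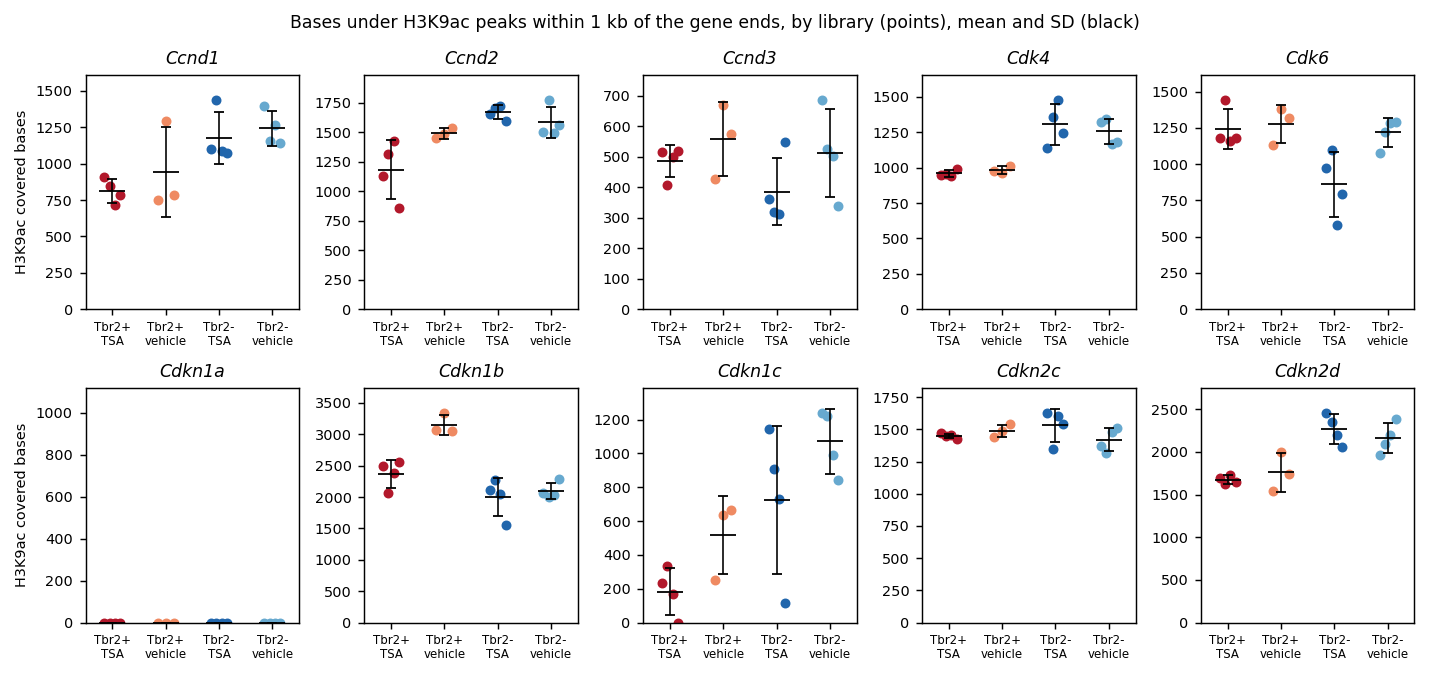
Bases under H3K9ac peaks within 1 kb of both gene ends for each gene, 1 point per library, with the group mean and SD in black. The Tbr2-positive vehicle points of Cdkn1b, 3053 to 3340 bases, stand above its other 12 libraries, and every point of Cdkn1a is at 0.

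Under TSA the groups did not overlap for 5 genes, against 28.0% of genes with a peak. Cdk6 had 1179, 1444, 1161 and 1180 covered bases in Tbr2-positive TSA libraries, against 971, 1097, 578 and 797 in Tbr2-negative TSA libraries. It was the only one of the 5 with longer coverage (difference 380 bases; exact permutation p = 0.0286; adjusted p = 0.102), which held for 0.36% of all genes with a peak. The other 4 were shorter in Tbr2-positive TSA libraries, Ccnd1, Ccnd2, Cdk4 and Cdkn2d, with differences of -347 to -590 bases between group means, as were 27.6% of all genes with a peak. The Tbr2-positive TSA lists were also the shortest ones. With the strongest 31823 peaks of every library, non-overlap remained for Cdk6, Ccnd2 and Cdkn2d and was added for Ccnd3, and it was lost for Ccnd1 and Cdk4 (4 members, 23.5% of genes). Of these members, Cdk6 and Ccnd3 were longer in Tbr2-positive TSA libraries, as were 0.791% of genes. Ccnd2 and Cdkn2d were shorter, as were 22.7% of genes.

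Around annotated starts, the groups were apart at 4 of the 10 starts in vehicle, against 21.2% of 15248 starts with a peak, and at 5 in TSA, against 27.7%. Cdk6 and the downstream start of Cdkn2c had longer coverage in Tbr2-positive libraries under both treatments, without overlap. Of the 2001 bases around its start, Cdk6 had 1957 to 2001 covered in Tbr2-positive vehicle and 1626 to 1953 in Tbr2-negative vehicle libraries, and 1994 to 2001 in Tbr2-positive TSA and 1516 to 1970 in Tbr2-negative TSA libraries. Several Tbr2-positive values are at the full width of the window. Cdkn2c had 1493 to 1661 in Tbr2-positive vehicle and 1246 to 1467 in Tbr2-negative vehicle libraries, and 1411 to 1769 in Tbr2-positive TSA and 1013 to 1398 in Tbr2-negative TSA libraries. Of all starts with a peak, 4.37% were longer without overlap in vehicle and 0.453% in TSA. Exact permutation p-values for Cdk6 were 0.114 in vehicle and 0.0286 in TSA, and for Cdkn2c 0.0571 and 0.0286; adjusted over all starts they were 0.103 or more. At the upstream start of Cdkn2c, whose window is printed above, the groups overlapped under both treatments, with differences between means of 70.1 bases in vehicle and -81.5 bases in TSA. Under TSA the 2 starts of Ccnd3 were apart in opposite directions, by 140 bases at the upstream and -364 bases at the downstream start. Cdkn2d, with no called RNA difference, was shorter at its start under both treatments, as were 16.9% of starts in vehicle and 27.3% in TSA.

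Between TSA and vehicle, no member was longer without overlap in either population. In Tbr2-positive libraries Cdkn1b and Ccnd2 were shorter without overlap, against 30.4% of genes in either direction and 30.3% as shorter. Cdkn1b had 2491, 2058, 2384 and 2565 covered bases in Tbr2-positive TSA and 3070, 3340 and 3053 in Tbr2-positive vehicle libraries (exact permutation p = 0.0286; adjusted p = 0.145). Ccnd2 had 1128, 1317, 1423 and 856 in Tbr2-positive TSA and 1448, 1488 and 1539 in Tbr2-positive vehicle libraries (exact permutation p = 0.0857; adjusted p = 0.224). With the same number of peaks in every library neither remained, against 23.4% of genes apart with such lists. Without Tbr2-positive vehicle replicate 1 the count of members apart was 6, with the share over all genes not counted. At its downstream start, Cdkn1a had 176 to 812 covered bases in Tbr2-positive TSA and 819 to 857 in Tbr2-positive vehicle libraries, and 701 to 1242 in Tbr2-negative TSA and 688 to 1046 in Tbr2-negative vehicle libraries. The first pair did not overlap, as for 28.9% of all starts with a peak; the second did.

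In Tbr2-negative libraries no member's groups were apart, against 3.93% of genes with a peak in either direction, 3.21% as shorter. At an unadjusted exact p below 0.05 were 623 genes and none of the members. Without 1 library the count of members apart became 3 (Tbr2-negative TSA replicate 2) or 1 (Tbr2-negative vehicle replicate 1 or 2), with the share over all genes not counted. Cdk6 had 971, 1097, 578 and 797 covered bases in Tbr2-negative TSA and 1080, 1221, 1285 and 1289 in Tbr2-negative vehicle libraries, which overlapped by 1 library of each group (exact permutation p = 0.0571). Cdkn1a, Ccnd2 and Cdkn2d, the members with the smallest unadjusted RNA p-values for TSA there, had overlapping groups. Ccnd2 averaged 1670 ± 59.7 covered bases in Tbr2-negative TSA and 1580 ± 132 in Tbr2-negative vehicle libraries (SD, n = 4 each). Cdkn2d averaged 2260 ± 174 covered bases in Tbr2-negative TSA and 2160 ± 179 in Tbr2-negative vehicle libraries (SD, n = 4 each). The gene-end windows of Cdkn1a had none.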

How the data were processed

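The RNA libraries (TruSeq RNA v2, which does not mark strand) were deposited by the authors as raw counts per Ensembl gene, and H3K9ac as peak lists with a −log10 q per peak, per the file headers from MACS 2.1.0.20140616 at q 0.1, each library against 1 input per group. The submitters' processing notes name mm10, SAMtools and MACS2; no source used here names the aligner, the counter or the annotation. The 4 input samples were not analysed here. Symbols were matched for 48349 of 48709 identifiers.

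Counts were tested with edgeR 4.0.16 (R 4.3.3): filterByExpr, TMM scaling, robust quasi-likelihood fit with 1 mean per group over all 10 libraries, and Benjamini-Hochberg adjustment over 20078 genes at 0.05. CPM used TMM library sizes. Fold changes are on the log2 scale with their SE. DESeq2 1.42.0 served as an alternative. The edgeR step was tested on simulated data. H3K9ac coverage is the bases of windows of 1 kb on either side of both gene ends (RefSeq, GRCm38.p6) that lie under peaks. Groups of libraries were compared by whether their ranges overlap and by exact permutation tests of the mean, adjusted over 15845 protein-coding genes with a peak; SciPy 1.17.1 gave the adjustment. Coverage moves with the length of a peak list, so lists cut to the same length were an alternative. H3K9ac libraries held 15173175 to 30267202 tags each, per the file headers. Replicate numbers came from the titles. Named genes are the 10 members, up to 3 called genes per pathway list with the smallest adjusted p, and the 3 genes nearest to a member by correlation. The members and lists were chosen with earlier results of these data known. Alternatives were other scaling (RLE), no filter, only the 2 groups compared, a non-robust fit, a replicate block, each library left out in turn, wider windows (2 kb), a −log10 q of at least 5 and at least 200 covered bases; windows around annotated starts and equal list lengths for peak presence were added after seeing the data.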

Additional observations from a re-analysis of the deposited data

Results flagged for a closer look

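Over 27 sets of H3K9ac values (1 member in 1 group of 4 libraries), 2 stood out by a single library far from the other 3 of its group, and chance gives about 1 such set in 20. Ccnd1 had 1439 covered bases in Tbr2-negative TSA replicate 2, whereas the other libraries of that group had 1071 to 1103. Cdk6 had 1444 covered bases in Tbr2-positive TSA replicate 2, whereas the other libraries of that group had 1161 to 1180.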

How the results depend on the processing

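The members called between populations mostly stayed called. In vehicle, Ccnd2, Cdk4, Cdk6, Cdkn1b and Cdkn2c were called under 16 of 16 alternatives and Ccnd1 under 12; in TSA, Cdk6 was called under 16 of 16, Cdk4 under 12 and Cdkn1b under 12. Between TSA and vehicle in Tbr2-negative libraries, DESeq2 called 3 members and edgeR without the low-count filter called 1, where edgeR with the filter called 0. Over all genes, DESeq2 called 3052 between populations in TSA (edgeR 1871), 1065 for TSA in Tbr2-positive libraries (edgeR 0, without the filter 364), 2029 for TSA in Tbr2-negative libraries (edgeR 236, without the filter 944, non-robust fit 0, only the 2 groups compared 401) and 12 for the interaction (edgeR 0). The cause was not tested. The interaction could not be fitted with only 2 groups. For single members in RNA under alternatives other than a left-out library, 281 values kept direction and side of the threshold, 7 passed it newly, 1 no longer passed and 1 changed sign.

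Whether replicate numbers pair the RNA libraries was not settled. Same-numbered libraries of the 2 populations had deviations from their group means correlated at 0.08 to 0.1 in vehicle and 0.12 in TSA. Same-numbered TSA and vehicle libraries had values of -0.03 to -0.01. Libraries with different numbers were not compared, so these values cannot decide it. With a replicate block, edgeR called 14 genes for TSA in Tbr2-negative and 13 in Tbr2-positive libraries, and the log2 fold change of Cdk6 with TSA in Tbr2-positive libraries was -0.11, against 0.02 without it. In H3K9ac, the replicate block (the same sign in every same-numbered pair) gave 6 members between populations in vehicle, 4 for TSA in Tbr2-positive and 3 for TSA in Tbr2-negative libraries. The share of all genes that meets this rule was not counted, so these counts cannot be read as a result about the members. The titles number the Tbr2-positive vehicle libraries 1, 2 and 3, whereas the names of their deposited files carry 1, 3 and 4, so same-numbered pairs with that group may not match and its counts of 6 and 4 cannot be read as paired results. For TSA in Tbr2-positive libraries, windows of 2 kb gave 5 members, with the share over all genes not counted. The same number of peaks in every library gave 0, against 23.4% of genes.

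With 1 library left out, the number of RNA members called was 1 to 4 between populations in TSA and 0 to 1 for TSA in Tbr2-negative libraries, and the number of members apart in H3K9ac was 3 to 5 between populations in vehicle, 2 to 6 for TSA in Tbr2-positive and 0 to 3 for TSA in Tbr2-negative libraries. No share over all genes stands beside these counts, so they describe only how far the counts of members moved. The log2 fold changes that changed sign were those of uncalled genes: between populations, Cdkn1c in vehicle (-0.31 to 0.11) and Ccnd3 (-0.44 to 0.61) and Cdkn2d (-0.17 to 0.18) in TSA; for TSA in Tbr2-positive libraries, Ccnd2 (-0.32 to 0.1), Ccnd3 (-0.53 to 0.54) and Cdk6 (-0.12 to 0.17); for TSA in Tbr2-negative libraries, Ccnd1 (-0.33 to 0.04), Ccnd3 (-0.08 to 0.35) and Cdk6 (-0.52 to 0.06); and for the interaction, Ccnd1 (-0.23 to 0.18), Ccnd3 (-0.67 to 0.39), Cdk4 (-0.32 to 0.01), Cdk6 (-0.03 to 0.55), Cdkn1a (-0.43 to 0.02), Cdkn1b (-0.07 to 0.19) and Cdkn1c (-0.46 to 0). Where 1 library remained in a group, it was assumed to vary like the others. With 2 TSA libraries per population in RNA, small differences were not detectable. In H3K9ac, 35 or 70 splits give an exact permutation p of at least 0.0286. After adjustment over 15845 genes, a difference of any size in a single gene could then not pass by itself.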
